A study of Arabidopsis thaliana with 4 samples.

Results

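The comparison described here sets gain of Asymmetric Leaves2 (AS2) against its loss. It rests on 2 of the 4 Affymetrix arrays of the series, 1 from shoot apices of AS2 overexpressing plants and 1 from apices of the as2-1 mutant, picked by their genotype labels. Wild type (1 array) was set beside them only to show which of the 2 stood away from it, and as1-1 (1 array), a mutant in AS1, the partner gene of AS2, was given as a further reference point. All plants were Arabidopsis thaliana labelled as Col-0, grown on soil for 14 days under 16 hours of light and 8 hours of dark, and the tissue was the shoot apex with its leaf primordia. For the promoter that drives AS2, the number of lines and the number of plants pooled, the sources used here give nothing. Part of the submitters' free text speaks of embryos, against the growth and tissue labels, which were followed. No genotype had a replicate, so every difference below describes single arrays, carries no error and was not tested.

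AS2 is a nuclear protein of the LBD family, found in plants alone, that acts with the MYB protein AS1 in young leaf primordia. Together they repress class I KNOX genes, which keep meristem cells undifferentiated, and genes of the lower (abaxial) leaf side. Plants without AS2 form lobed, asymmetric leaves, and plants with too much AS2 form leaves that curl upward.

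More probe sets were lower than higher in the AS2 overexpressing array relative to as2-1. Among genes with a name, YAB5, whose YABBY protein promotes abaxial leaf identity, was at least 8.93-fold lower, and BCAT4, which starts the methionine chain elongation of aliphatic glucosinolates, was 4.09-fold lower. GI, a gene of the circadian clock and of flowering time, was 3.5-fold higher, and LHCB4.2, a minor antenna protein gene of photosystem II, was 3.39-fold higher. A probe set was compared when its signal reached the floor of 43 on at least 1 of the 2 arrays, and smaller signals were raised to 43. Of 14012 such probe sets, 482 (3.44%) differed at least 2-fold, 332 lower (2.37%) and 150 higher (1.07%) with AS2 overexpressed. In whole apices, fewer cells of a type and less RNA per cell cannot be told apart. In 57 of the lower and 15 of the higher probe sets the dimmer array lay under the floor, so their fold is a lower bound. Between AS2 overexpressing and wild type 2.29% of probe sets were that far apart, and between as2-1 and wild type 3.61%.

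Most of the differences were modest. At least 3-fold apart were 84 lower and 30 higher probe sets, at least 4-fold 30 and 9, and at least 8-fold 5 and 4. Of the 13011 probe sets measured on both arrays, 85.8% lay within 1.5-fold, and the median log2 difference was -0.02. The share called was 4.57% among the 3503 probe sets of lowest mean signal and 2.94% among the 3503 of highest, and the excess of lower over higher calls was larger at the dim end (117 against 43) than at the bright end (62 against 41). The balance of the calls depended on scaling and on the floor. Centring each array on all its probe sets gave 259 lower and 215 higher, and centring on the brighter ones 297 and 172. Quantile normalization gave 283 lower and 167 higher, and cyclic loess 291 and 166. With no floor the higher ones were the more frequent, 2627 against 1977 lower. The count was 308 with the floor at 86 and 790 with it at 20.

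**Figure D1:**
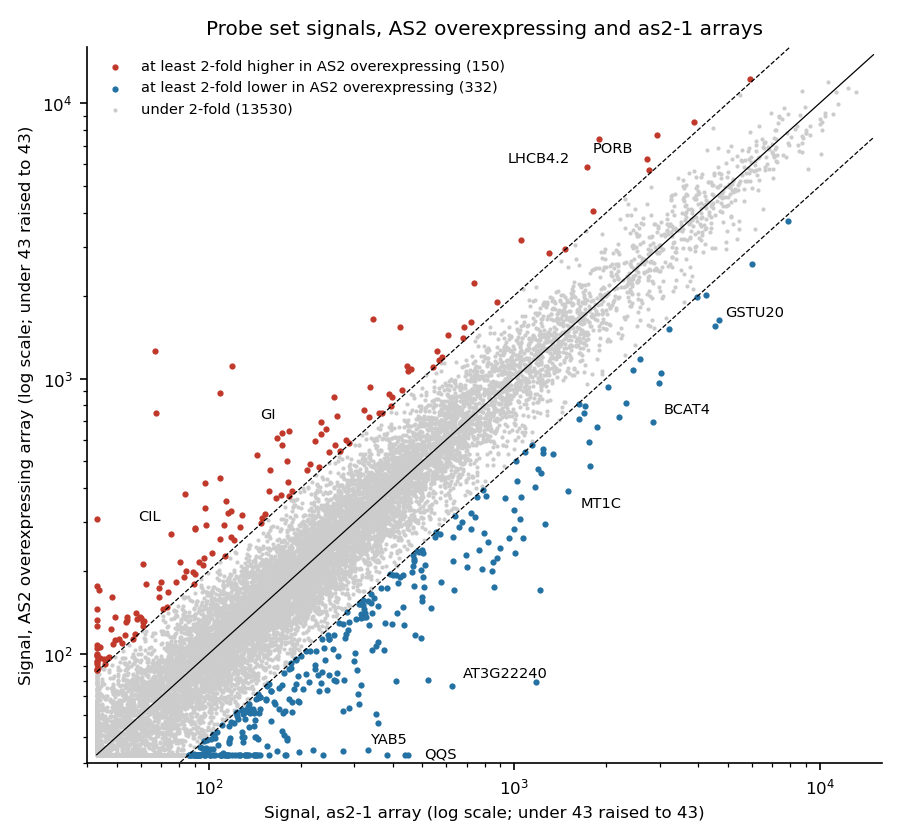
Signal of each probe set in the AS2 overexpressing array (vertical, log scale) against the as2-1 array (horizontal, log scale), with signals under 43 raised to 43. Dashed lines mark 2-fold, and 332 probe sets lie below the lower line and 150 above the upper one; points on the bottom or left edge are lower bounds.

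Beside wild type, the 482 probe sets showed several patterns. For 158 of them only as2-1 stood at least 2-fold from wild type, and for 84 only the AS2 overexpressing array did. For 9 both did so in opposite directions, and for 10 both did so in the same direction but unequally. For the remaining ones, 157 lower and 64 higher, neither array reached 2-fold from wild type. Wild type lay between the 2 arrays for 82.2% of the lower and 62.7% of the higher probe sets. Since these probe sets were picked for a wide gap between the 2 arrays, a wild type value inside it is favoured by the choice itself. No such share was computed over all probe sets compared, and whether signals followed the level of AS2 was not tested. Among the lower ones 102 were set apart by as2-1 alone and 66 by the AS2 overexpressing array alone, and among the higher ones 56 and 18. Wild type is a single array that enters both differences.

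**Figure D2:**
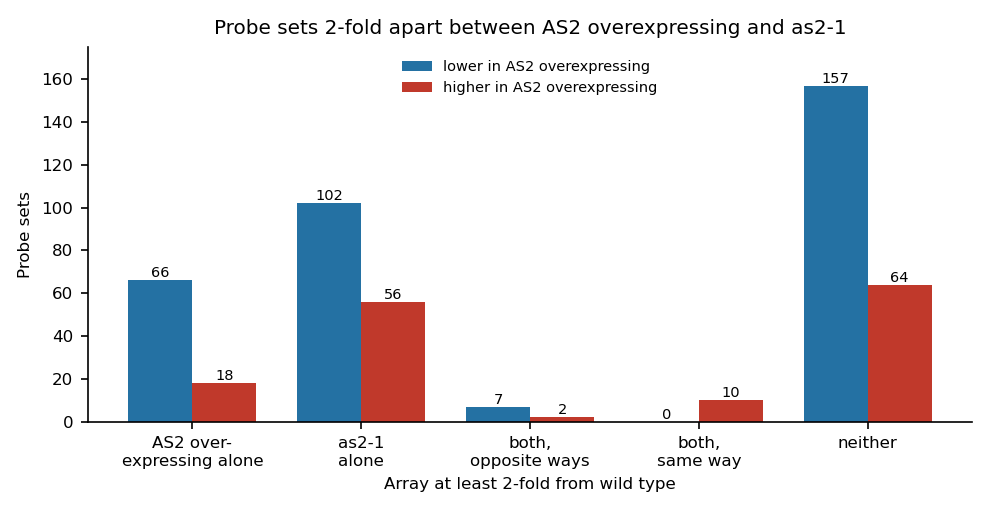
Number of probe sets at least 2-fold lower (blue) or higher (red) with AS2 overexpressed than in as2-1, split by which array was at least 2-fold from wild type. The largest class in both directions is the one where neither was, with 157 lower and 64 higher.

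**Figure D3:**
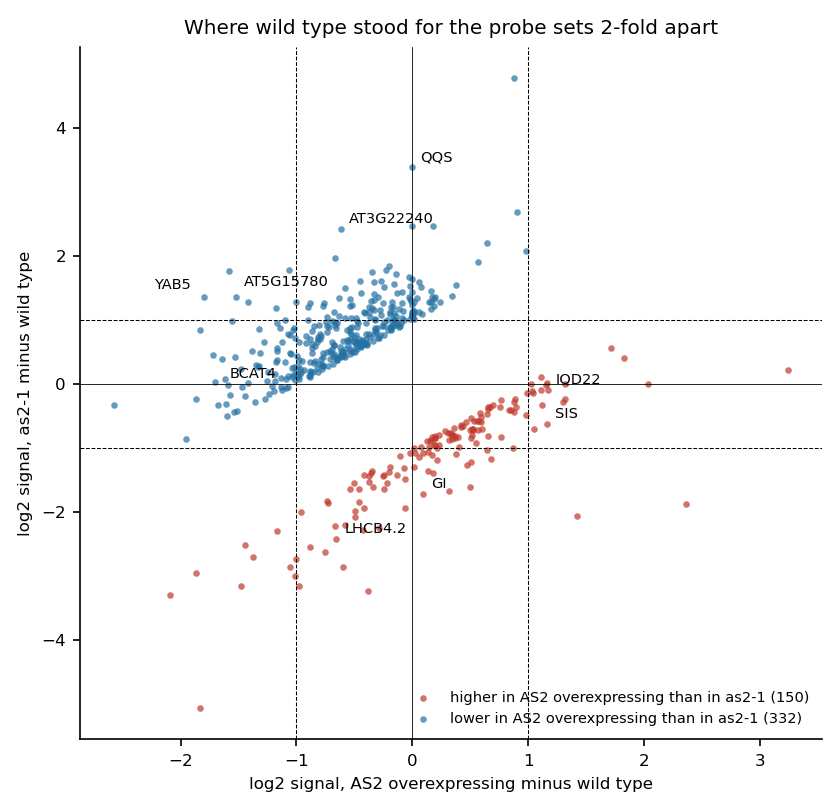
For each of the 482 probe sets, the log2 difference from wild type with AS2 overexpressed (horizontal) and in as2-1 (vertical), with dashed lines at 2-fold and a difference between 2 signals under 43 drawn at 0. YAB5 and AT5G15780 stand in the upper left, lower than wild type with AS2 overexpressed and higher without it, while GI and LHCB4.2 lie near the vertical midline or left of it and well below the horizontal one.

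The leaf polarity genes were few among the named probe sets. YAB5 had a signal of 4.9 in the AS2 overexpressing array, 383.9 in as2-1 and 149.7 in wild type, with 350.8 in as1-1. It was therefore under the floor with AS2 overexpressed, at least 3.48-fold lower than wild type there, and 2.56-fold higher than wild type in as2-1. YAB3, a second YABBY gene of the abaxial side, had 394.2 in the AS2 overexpressing array, 434.3 in as2-1 and 428.6 in wild type, a log2 difference of -0.14. PHV, which promotes adaxial (upper) leaf identity, had 473.3, 275.4 and 301.9 in the same order, 1.72-fold higher with AS2 overexpressed than in as2-1. AGO7, which takes part in the small RNA pathway that limits abaxial auxin response factors, had 45.2, 82.0 and 24.9, so that it was 1.81-fold lower with AS2 overexpressed than in as2-1 and under the floor in wild type. AS1, AS2, the class I KNOX genes, ETT and KAN2 were not followed by name here, since the naming table used left 8730 probe sets unnamed, so neither the mutation nor the overexpression could be checked on its own gene.

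Opposite positions around wild type, each at least 1.5-fold away, were found for 30 named genes, 24 of them lower and 6 higher with AS2 overexpressed than in as2-1. They came out of 7658 compared probe sets listed with 1 gene. Genes with both arrays on the same side of wild type, such as COR27 and MSRB6 given further on, were not counted at that cut. Whether opposite positions were the more frequent was therefore not tested. After YAB5, AT5G15780 was the 1 other named gene at least 2-fold away on both sides, with 44.9 in the AS2 overexpressing array, 333.2 in as2-1 and 129.2 in wild type. Its as1-1 signal was 75.8, below wild type, where that of YAB5 was above it. AT5G01870 had 296.2, 1265.6 and 634.5 in the same order, 2.14-fold below wild type with AS2 overexpressed and 1.99-fold above it in as2-1. AT5G47180 had 48.5, 180.7 and 98.4, AT1G27030 had 62.0, 274.9 and 114.2, and AT4G00780 had 127.9, 397.4 and 251.3. On these 3 genes too wild type sat near the middle of the range on the log scale.

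The remaining genes of that kind spread over several families, and included AT3G22240, GSTU20 and UGT78D1, given further on. MSRB5, which repairs oxidized methionine, had 87.0 in the AS2 overexpressing array, 306.5 in as2-1 and 180.4 in wild type. PME61, a pectin methylesterase gene, had 28.5, 133.6 and 71.6, the first of these under the floor. XTH32, a xyloglucan endotransglucosylase/hydrolase gene of wall remodelling, had 210.5, 511.6 and 335.9. AT5G59330, AT1G62500, AT2G31790, AT1G49750, AT2G39850, AT2G33850, AT1G28710, AT2G25450, AT5G36160, AT5G45510, AT2G40435 and AT1G24575 followed the same order, between 2.43-fold and 3.95-fold lower with AS2 overexpressed than in as2-1, the last 2 as lower bounds. The 6 genes of the reverse order were CIL, SIS, AT3G19850, AT1G59740, AT5G19120 and MCCA. CIL, named for its likeness to a regulator of chloroplast protein import, had 272.9 in the AS2 overexpressing array, 75.4 in as2-1 and 170.2 in wild type. SIS, a salt-induced serine-rich protein gene, had 211.4, 61.0 and 94.3. MCCA, a subunit gene of the enzyme that degrades leucine in mitochondria, had 488.7, 214.5 and 324.6. AT1G59740, a member of the nitrate and peptide transporter family (NPF4.3), had 287.0, 89.9 and 183.6, and only 45.5 in as1-1.

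**Figure D4:**
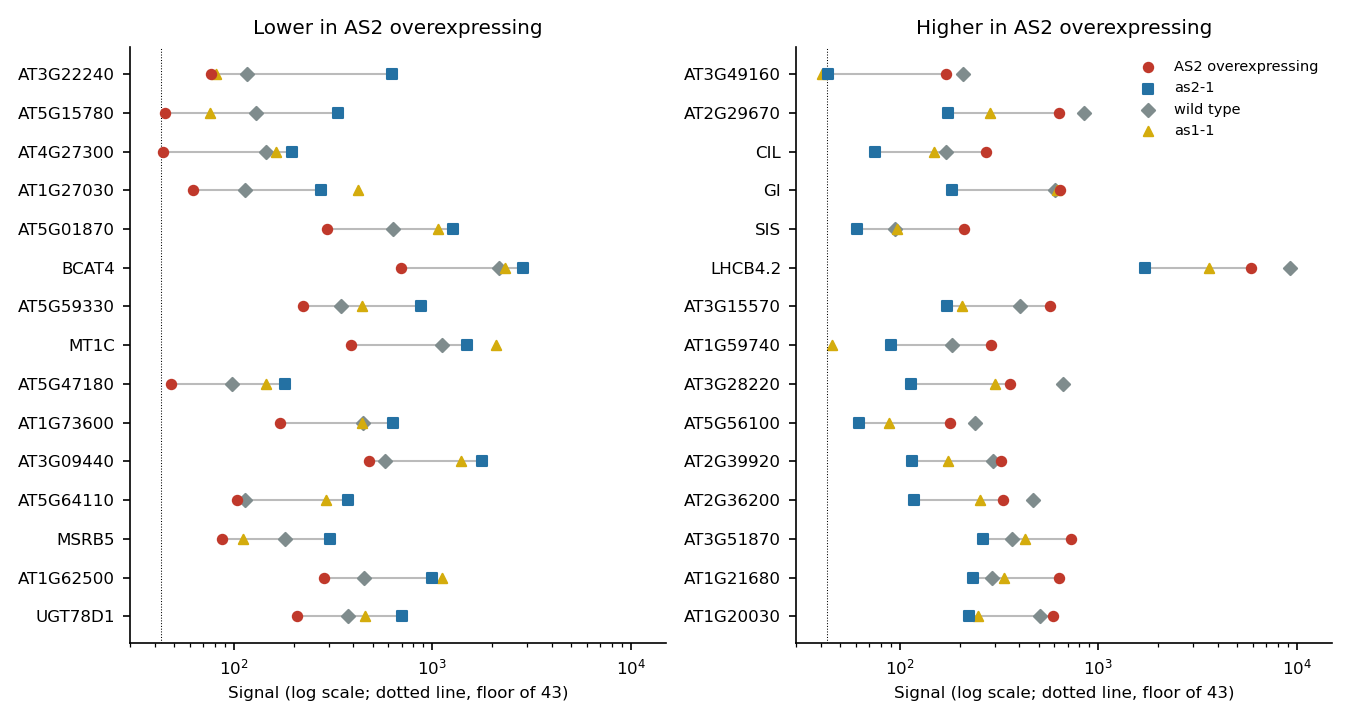
Signals on all 4 arrays (horizontal, log scale) of the 15 named genes with the largest measured difference in each direction; grey lines join the AS2 overexpressing array (circles) to as2-1 (squares). In the right panel wild type (diamonds) lies near the circles for GI, AT2G39920 and AT3G49160, and in the left panel it lies near the squares for AT4G27300, BCAT4 and MT1C.

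A further set of genes was low with AS2 overexpressed while as2-1 stayed near wild type. BCAT4 had 694.9 in the AS2 overexpressing array, 2845.1 in as2-1 and 2175.1 in wild type. MT1C, a metallothionein gene whose small protein binds metals, had 389.4, 1499.8 and 1122.0. AT4G27300 had 43.9, 197.1 and 144.6, just above the floor with AS2 overexpressed. On each of these 3 genes the AS2 overexpressing signal was the lowest of the 4 arrays. GLC, scpl31 (a serine carboxypeptidase-like gene), AT1G73600, AT1G06100, AT3G13980 and AT1G67870 showed the same pattern and were between 3.04-fold and 3.71-fold lower than in as2-1. A second probe set of GLC differed by only -0.61 on the log2 scale.

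Other genes stood apart mainly through a high signal in as2-1. QQS, a gene found only in this species that affects starch content, had 29.5 in the AS2 overexpressing array, 449.1 in as2-1, 18.6 in wild type and 24.9 in as1-1. It was above the floor in as2-1 alone, at least 10.4-fold higher there than with AS2 overexpressed. AT1G19960 had 17.7, 236.9, 8.8 and 36.6 in the same order and was likewise above the floor in as2-1 alone. AT3G22240 had 76.4 in the AS2 overexpressing array, 626.1 in as2-1, 117.1 in wild type and 81.8 in as1-1, so that as2-1 was 5.35-fold above wild type and the AS2 overexpressing array 1.53-fold below it. AT3G09440, AT5G64110, AT2G29660, AT1G06830 and AT1G64710 were between 3.12-fold and 3.69-fold lower with AS2 overexpressed than in as2-1, with AT1G06830 under the floor in the AS2 overexpressing array. For these 5 genes the as1-1 signals, between 162.9 and 1397.6, were nearer to as2-1 than to wild type on the log scale. SMZ, a repressor of flowering of the AP2 family, had 66.0, 164.7, 75.6 and 125.1, and was picked out after its values were seen.

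Several of the genes with the largest higher difference were low in as2-1. AT3G49160 had 170.6 in the AS2 overexpressing array, 43.7 in as2-1 and 207.6 in wild type, and AT2G29670 had 632.8, 174.4 and 849.5. GI had 642.4, 183.6 and 602.3, and its as1-1 signal of 616.2 also lay with wild type. For GI as2-1 was thus the 1 array apart. AT3G15570 had 573.4, 173.8 and 404.3, AT3G28220 had 360.1, 114.3 and 664.1, and AT2G36200 had 331.4, 118.2 and 467.2. AT5G56100, AT2G39920, AT1G20030, AT5G57345, AT5G59130, AT2G30600, AT3G16120 and AT5G60840 were between 2.4-fold and 2.88-fold higher than in as2-1, with as2-1 at least 2-fold below wild type. In as1-1 too, AT3G49160 (40.6), AT2G29670 (285.4), AT3G28220 (300.7), AT5G56100, AT1G20030, AT5G57345, AT5G59130 and AT3G16120 were at least 2-fold below wild type. AT3G15570 (206.1), AT2G36200 (252.6) and AT2G39920 (174.1) were below it there by less. AT2G30600 (413.3) and AT5G60840 (125.9), like GI, lay near wild type in as1-1. Fewer genes were above wild type with AS2 overexpressed while as2-1 was not far from it. IQD22, which encodes a calmodulin-binding IQ-domain protein, had 260.6 in the AS2 overexpressing array, 108.7 in as2-1, 115.8 in wild type and 116.1 in as1-1, so that the AS2 overexpressing array alone stood apart. AT1G21680 had 631.2, 232.6, 290.9 and 333.3, and AT3G51870 had 728.1, 262.1, 368.1 and 429.0. With the floor at 86, the dim genes AT3G49160, AT3G19850, AT5G59130, AT3G16120 and AT5G60840 were under 2-fold, as were AT1G06830, AT2G40435, AT1G24575, SMZ and ROXY2.

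Glucosinolates are sulfur-rich defence compounds, of which the aliphatic ones are built from methionine. All 3 named genes of the aliphatic glucosinolate list were lower with AS2 overexpressed than in as2-1, 2 of them at least 2-fold. Beside BCAT4 this was GTR1, a glucosinolate transporter gene, with 114.4 in the AS2 overexpressing array, 279.6 in as2-1 and 123.9 in wild type. The second transporter gene, GTR2, had 360.4, 476.3 and 273.8, a log2 difference of -0.40. The list's median was -1.29 on the log2 scale, where the 7658 probe sets listed with 1 gene had a median of -0.01 and 2.04% of them were at least 2-fold lower and 0.862% higher. BCAT4 and GTR1 differed from wild type on different arrays, the first with AS2 overexpressed and the second in as2-1.

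A wider list of sulfur assimilation and glucosinolate core genes, drawn up after the values were seen, had 6 members compared, all lower in the AS2 overexpressing array and 4 of them at least 2-fold, beside the 2.04% over all probe sets with 1 gene. GSTU20, a glutathione S-transferase gene, had 1556.6 in the AS2 overexpressing array, 4540.9 in as2-1, 2595.8 in wild type and 3728.5 in as1-1. UGT74B1, which adds glucose during synthesis of the glucosinolate core, had 313.8, 742.5, 456.7 and 800.1. On both genes the order was AS2 overexpressing, wild type, then the mutants. APS3, an ATP sulfurylase gene of sulfate assimilation, had 157.5 in the AS2 overexpressing array and 320.3 in as2-1, and APS4, of the same family, 125.5 and 195.9. MYC4, a jasmonate-response transcription factor gene that acts on glucosinolate genes, had 42.4 and 93.4. The first of these was under the floor, so MYC4 could only come out lower. MYC3, its close relative, had 165.6 and 242.5. APS3 was just under 2-fold with centring, quantile normalization or loess, and MYC4 differed by -0.12 on the log2 scale once the floor was raised to 86.

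The anthocyanin and flavonoid list had 3 members compared. DFR, which commits flavonoids to anthocyanin synthesis, had 22.7 in the AS2 overexpressing array, 133.8 in as2-1, 41.6 in wild type and 85.3 in as1-1, at least 3.11-fold lower than in as2-1. It was at or above the floor in the 2 mutants alone. UF3GT, a flavonoid glycosyltransferase gene, had 29.5, 71.3, 34.6 and 32.0, and CHIL, a chalcone isomerase-like gene, 74.6, 107.7, 142.5 and 71.2. All 3 members of that list were lower than in as2-1, 1 of them at least 2-fold. DFR and UF3GT were under the floor with AS2 overexpressed, so they could only come out lower. The median log2 difference of -0.73 was that of UF3GT and is a bound. CHIL, measured on both arrays, was highest in wild type. Of 28 UDP-glycosyl transferase genes compared, a family chosen after the values were seen, 3 were at least 2-fold lower and 0 higher, beside 2.04% and 0.862% of all probe sets with 1 gene, and the family median was 0.02. Besides UGT74B1 these were UGT78D1 and UGT78D2, which attach rhamnose and glucose to flavonols. UGT78D1 had 207.5 in the AS2 overexpressing array, 699.4 in as2-1 and 374.1 in wild type, and UGT78D2 had 97.8, 200.2 and 153.7. With the floor at 86 DFR differed by -0.64 on the log2 scale, and UGT78D2 was under 2-fold with every rescaling tried.

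The cell wall list held 24 members compared, 6 at least 2-fold lower with AS2 overexpressed than in as2-1, 1 higher and 17 closer, with a median log2 difference of -0.20. Over all probe sets listed with 1 gene, 2.04% were lower and 0.862% higher. GH9B8, of the family of endoglucanases that act on cellulose, had 61.9 in the AS2 overexpressing array, 178.4 in as2-1, 66.0 in wild type and 179.2 in as1-1. EXPA20, an expansin gene whose protein loosens walls, had 49.8, 130.6, 50.9 and 154.7, and EXLA2, an expansin-like gene, 43.3, 87.6, 41.1 and 96.8. These 3 genes had the AS2 overexpressing array with wild type and both mutants above. GH9B13 had 153.3, 340.9, 170.6 and 162.5, with as2-1 alone apart. EXPA16 went the other way, with 111.9, 49.4, 54.2 and 103.1, so that here the AS2 overexpressing and as1-1 arrays were the higher ones. EXLB1, a further expansin-like gene, had 156.7, 86.9, 56.1 and 46.0, a log2 difference of 0.85. Within the expansin family, 11 members compared, 2 were lower, 1 was higher and the median was 0.01, so the family had no common direction. EXPA20, EXPA16, EXLA2 and PME61 lay under 2-fold with the floor at 86.

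Of 25 redox and metal-binding genes compared, 4 were at least 2-fold lower and 1 higher with AS2 overexpressed than in as2-1, where 2.04% and 0.862% of all probe sets with 1 gene were. Their median log2 difference was -0.20. The lower ones were MT1C, MSRB5 and GSTU20, given above, and GRXC1, a glutaredoxin gene, with 65.9 in the AS2 overexpressing array and 135.2 in as2-1, which was under 2-fold with the floor at 86 and with every rescaling tried. The higher one was TRXF2, a thioredoxin gene that activates enzymes of the chloroplast, with 722.0 in the AS2 overexpressing array, 335.2 in as2-1, 1046.3 in wild type and 483.9 in as1-1. MSRB6, a relative of MSRB5, had 51.1 and 90.5 against 239.9 in wild type, so both arrays were low on that gene. ROXY2, a plant-specific glutaredoxin gene known from anther development, had 108.6 in the AS2 overexpressing array, 48.8 in as2-1, 48.4 in wild type and 19.4 in as1-1, and was picked out after its values were seen.

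Nuclear photosynthesis genes stood on the other side. Of 15 compared, 12 were higher with AS2 overexpressed than in as2-1, 2 of them at least 2-fold, and 0 were 2-fold lower. Over all probe sets compared, 6690 were above 0 and 7303 below, and 1.07% were at least 2-fold higher. Their median log2 difference was 0.41, with medians of -0.13 for the AS2 overexpressing array and -0.51 for as2-1 against wild type. LHCB4.2 had 5852.9 in the AS2 overexpressing array, 1726.0 in as2-1, 9224.4 in wild type and 3592.7 in as1-1. PORB, a light-dependent enzyme gene of chlorophyll synthesis, had 6261.8, 2727.6, 6011.1 and 4005.9. On both genes the mutants were the lower arrays. LHCB4.1, a near relative of LHCB4.2, had 9200.6, 6937.2, 9942.2 and 7718.7, and RCA, Rubisco activase, 6761.6, 5583.6, 9159.9 and 4971.3. LHCB4.3, the third member of that antenna family, had 124.8 and 136.6 in the AS2 overexpressing and as2-1 arrays, so the 3 genes did not share a size of difference.

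All 8 genes compared from a list of chlorophyll synthesis, drawn up after the values were seen and including PORB, were higher in the AS2 overexpressing array, 2 of them at least 2-fold, with a median log2 difference of 0.50. Over all probe sets listed with 1 gene, 3751 were above 0 and 3895 below, and 0.862% were at least 2-fold higher. CHLI2, a subunit gene of magnesium chelatase, had 858.4 in the AS2 overexpressing array, 398.7 in as2-1, 842.5 in wild type and 477.7 in as1-1. HEME1 and HEME2, both uroporphyrinogen decarboxylase genes, were 1.48-fold and 1.47-fold higher. CYTC6A, a thylakoid cytochrome gene picked out after its values were seen, had 909.9 in the AS2 overexpressing array and 428.0 in as2-1. The 69 genes of the plastid genome did not share this direction: 52 were below 0 and their median log2 difference was -0.17, with psbT, a small photosystem II subunit gene, the 1 member past 2-fold, at 315.8 in the AS2 overexpressing array and 641.5 in as2-1. psbT was under 2-fold with either centring. At least 2-fold lower were thus 1.45% of the plastid genes, beside 2.04% of all probe sets with 1 gene.

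**Figure D5:**
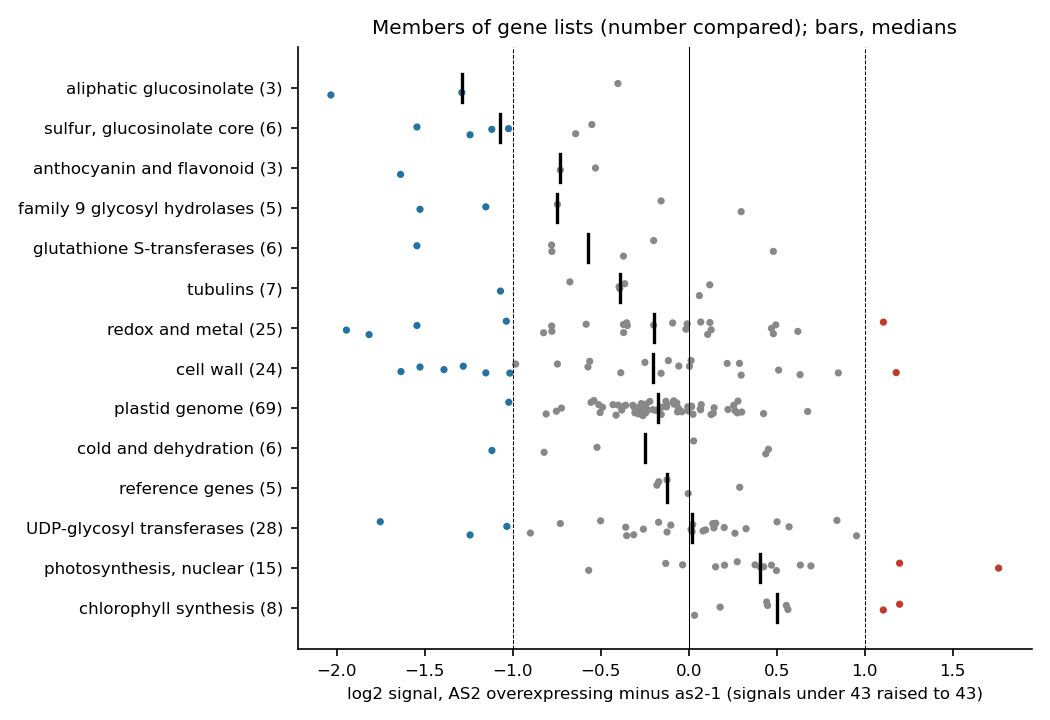
log2 difference between the AS2 overexpressing array and as2-1 for each compared member of 14 gene lists, with the number compared in brackets, vertical bars at list medians and dashed lines at 2-fold. Medians run from -1.29 for aliphatic glucosinolate genes to 0.50 for chlorophyll synthesis genes; red and blue points are members at least 2-fold higher and lower.

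The cold list and the division list each had 1 member past 2-fold, and the auxin and cytokinin lists had 0. Over all probe sets listed with 1 gene, 2.04% were at least 2-fold lower and 0.862% higher. COR47, a dehydrin gene, had 934.7 in the AS2 overexpressing array, 2029.2 in as2-1, 1264.5 in wild type and 3044.8 in as1-1, and was the 1 of 6 cold and dehydration genes past 2-fold. COR15A, a cold-induced chloroplast protein gene, had 315.6 in the AS2 overexpressing array, 309.5 in as2-1 and 394.0 in wild type. COR27, a cold-regulated gene tied to the clock, had 925.1, 675.7 and 134.0, so that both arrays were far above wild type and close to each other. GI was therefore the 1 of 2 clock genes past 2-fold. AT3G53250, a SAUR gene of the auxin response (SAUR57 in RefSeq), had 67.1 in the AS2 overexpressing array, 197.7 in as2-1, 10 in wild type (under the floor) and 297.8 in as1-1. It was 2.95-fold lower with AS2 overexpressed than in as2-1, and both mutants stood far above wild type. This gene was picked out after its values were seen. It is listed by locus number and so lay outside the auxin lists, which were matched by symbol and of whose members 0 reached 2-fold. GH3.3, whose product conjugates auxin, had 112.6 in the AS2 overexpressing array and 145.7 in as2-1. IAA29, an auxin repressor gene, had 53.6 and 17.8, which gives 0.32 on the log2 scale at a floor of 43 and 1.42 at a floor of 20. Of the cytokinin genes RR16, a type-A response regulator gene, had 209.9 and 136.5 and ARR15, of the same type, 111.2 and 122.5. Among 14 cell division and cytoskeleton genes TUB1, a beta-tubulin gene, was the 1 past 2-fold, with 271.5 in the AS2 overexpressing array, 569.9 in as2-1 and 835.5 in as1-1, and it was under 2-fold (-0.98 on the log2 scale) with centring on all probe sets. SIM, an inhibitor of cell division that drives endoreduplication in trichomes, had 113.2 and 247.5, while the stomatal lineage genes SPCH, with 188.8 and 216.8, and FMA, with 79.7 and 77.3, were close.

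All 5 reference genes, of steady level in many plant tissues, differed by at most 1.22-fold, with a median log2 difference of -0.12. The meristem marker CLV3 was under the floor on all 4 arrays, at 1.7 in the AS2 overexpressing array, 2.0 in as2-1 and 23.2 in wild type, so the meristem could not be followed by it. The trichome regulator TRY and the stomatal regulator MUTE were also under the floor on all 4. The lists for roots, for phloem and xylem, for gibberellin and ethylene and for ribosomal proteins had 0 named members. The seed and embryo list had 2 compared, at log2 differences of -0.79 and -0.80, and the flowering list had 1, AGL24, a MADS-box gene, with 121.2 and 114.3. The defence list had 3, between 0.02 and 0.26, the chromatin list 7, between -0.45 and 0.45, and the heat shock list 2, of which Hsp70-2 was 1.98-fold lower with AS2 overexpressed. AT3G09440, a chaperone gene given above at 3.69-fold lower, is listed by locus number and lay outside that list. The lists were matched by symbol, so a count over one of them leaves out genes known by locus number alone. Of families drawn up after the values were seen, the glutathione S-transferases had 1 of 6 at least 2-fold lower, the serine carboxypeptidase-like genes 1 of 14, the tubulins 1 of 7, and the CLE signalling peptides 1 of 3, which was CLE41, under 2-fold with either centring and with quantile normalization. The WRKY transcription factors had 0 of 5 past 2-fold in either direction. Beside these family counts, 2.04% of all probe sets listed with 1 gene were at least 2-fold lower and 0.862% higher.

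The as1-1 array, which took no part in choosing the 482 probe sets, was set against wild type, a difference that shares no array with AS2 overexpressing against as2-1. Of the 328 lower probe sets that could be compared, 62 were at least 2-fold higher in as1-1 than in wild type and 2 lower, and their median log2 difference was 0.52. Of 148 higher probe sets, 37 were at least 2-fold lower in as1-1 than in wild type and 1 higher, with a median of -0.55. Over all probe sets, 1.8% were higher and 1.39% lower in as1-1 than in wild type. The exceptions included QQS, AT3G22240 and GI, on which as1-1 lay with wild type or below it.

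Probe sets without a gene name held some of the largest differences. They made up 169 of the 332 lower and 81 of the 150 higher probe sets. The largest difference on the lower side was that of 256766_at, with 79.1 in the AS2 overexpressing array, 1174.6 in as2-1, 17.2 in wild type and 61.7 in as1-1. QQS, given above, was at least 10.4-fold lower with AS2 overexpressed than in as2-1. The next probe set without a gene name on that side was 255149_at, with 14.6, 440.3, 129.0 and 762.9, at least 10.2-fold lower. It was at least 3-fold below wild type with AS2 overexpressed and 3.41-fold above it in as2-1, and as1-1 was higher still. On the same raised signals, the largest difference on the higher side, and over all probe sets compared, was that of 253161_at. It had 1257.8, 66.7, 244.1 and 233.0. The next without a gene name on the higher side was 252415_at, with 751.1, 67.1, 280.5 and 339.6. On these last 2 probe sets wild type and as1-1 lay together between the other arrays. Both were at least 2-fold above wild type with AS2 overexpressed and at least 2-fold below it in as2-1, and they were the only 2 higher probe sets of that kind.

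Some of the named genes lie side by side in the genome (gene order from RefSeq, assembly TAIR10.1). Among 220 called loci, 4 pairs were direct neighbours among protein-coding genes, 2 differing the same way and 2 in opposite ways. The share over all neighbouring genes was not computed, so these counts say nothing on the role of genome position. AT2G29660 had 79.4 in the AS2 overexpressing array, 261.1 in as2-1 and 88.3 in wild type, while its neighbour AT2G29670 had 632.8, 174.4 and 849.5. In both genes as2-1 was the array that stood apart, high in the first and low in the second. PORB and its neighbour AT4G27450, with 297.5 in the AS2 overexpressing array and 148.7 in as2-1, differed the same way. Where 1 gene was covered by several compared probe sets, which was so for 75 genes, their log2 differences spanned a median of 0.31, and for 4 genes they spanned at least 1.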

How the data were processed

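RNA from 4 samples, 1 per genotype, was measured on Affymetrix arrays. The values used were the deposited signal intensities, 1 per probe set, on a linear scale. Biotin-labelled cRNA was made by the maker's protocol, per the labels, and the signal software and its settings are not given in the sources used here. After dropping 2% at each end, the mean signal was 198.5 in AS2 overexpressing, 198.4 in as2-1, 198.4 in wild type and 198.5 in as1-1, so no further scaling was applied in the main setting. Between 59.0% and 61.0% of the 22746 probe sets reached 43. With 1 array per genotype the number of arrays limits the precision, and no intensity has a known error.

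Signals under 43 were raised to 43, log2 differences were taken as AS2 overexpressing minus as2-1, and at least 2-fold was counted as called. Where both arrays lay under 43 no difference was computed (8734 probe sets). The naming table paired 13513 probe sets with a single gene and 503 with more, and left 8730 unnamed; 13436 matched a RefSeq locus (TAIR10.1), which supplied current symbols. Genes were named by rule: the 25 largest measured differences per direction, the 8 brightest bounds per direction, called members and the 4 largest differences of each list, genes at least 1.5-fold from wild type in opposite directions, and YAB3, YAB5 and PHV whatever their value. The comparison, the rule and the 27 gene lists were chosen with earlier results of these data known, and 16 further lists, and some genes with a symbol, after these values were seen. In 2 lists a pattern or a member that matched the wrong genes was corrected after matching. The calling step was run on simulated signals, with changes placed only in bright probe sets and an assumed noise. That run does not show how well changes in dim probe sets are found, or what the array error is. Alternatives used Python 3.11.15, pandas 2.3.3 and limma 3.58.1. No sequences are shown.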

Additional observations from a re-analysis of the deposited data

How the results depend on the processing

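Counts depended most on the floor. With it at 86, 308 probe sets were 2-fold apart, 204 of them lower in the AS2 overexpressing array; 46 were set apart from wild type by the AS2 overexpressing array alone, 105 by as2-1 alone and 5 by both in opposite ways. With it at 20 the counts were 790 in all, 273 higher and 517 lower, with 179 set apart by AS2 overexpressing alone and 16 by both. With no floor they were 4604, 2627 higher and 1977 lower, with 1202, 1716 and 331 in those 3 classes. Counting 1 probe set per named gene gave 220 (65 higher, 155 lower), and 3-fold in place of 2-fold gave 114 (30 higher, 84 lower), both by construction fewer. Centring on the brighter or on all probe sets, quantile normalization, cyclic loess and, chosen after seeing the data, leaving out probe sets with a letter before _at moved the total to between 450 and 474. Of 107 named genes at least 2-fold apart, 77 remained so under all 7 floors and scalings and 0 turned direction. With the floor at 86, 24 were under 2-fold. The floor at 20 and the setting without a floor could only keep or enlarge these folds, and a changed floor could not turn a direction. Some of the 107 were themselves named for their large difference on these same arrays. No paired analysis was possible because each genotype has 1 array. Leaving out a replicate was not possible either.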
